A study of Mus musculus with 6 samples.

Results

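The erythroid progenitors described here are 875 of 32762 filtered bone marrow cell barcodes, 2.67% of them, chosen by their transcripts. A member held at least 1 unique molecular identifier (UMI, the count of 1 captured transcript) of Klf1, at least 2 of Car1, at least 1 of Ermap and 0 of Ms4a3. It also had 500 to 7500 detected genes and a mitochondrial share of at most 15%. Pool 1 gave 357 members (3.19% of its filtered barcodes), Pool 2 gave 286 (2.98%) and Pool 3 gave 232 (1.93%).

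Red blood cells arise from stem cells through progenitors that first bear the receptor Kit and then come to depend on erythropoietin. Along this path GATA1, KLF1 and TAL1 switch on the genes for globins, heme synthesis, iron uptake and the red cell membrane skeleton, while GATA2, MYB and Kit decline. The cells keep dividing as they mature, later lose MHC class I and CD45 from their surface, and at the end shed the nucleus.

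The study profiled c-Kit-enriched bone marrow from BALB/c mice aged 10 weeks by droplet single-cell RNA sequencing, to ask how the tumor and the drug act on progenitors. The NTB (non-tumor-bearing) mice carried no tumor. The vehicle mice bore orthotopic tumors of 4T1, a BALB/c mammary carcinoma cell line, and received daily i.p. buffer. The BRQ mice bore the same tumors and received 10 mg/kg of brequinar (BRQ), an inhibitor of the pyrimidine synthesis enzyme DHODH, daily for 2 weeks. Each of 3 pools mixed 1 mouse of each group, told apart by hashtag antibodies, so 9 mice were studied. Red cells had been lysed before the enrichment, and the c-Kit beads set which stages could be present.

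The members were deeply sequenced. Their median depth was 18702, 17838 and 19084 UMIs in Pools 1, 2 and 3, beside 9254 for the 31887 other cells together, and the median member had 4404 detected genes. Scrublet, which marks likely doublets, marked 15, 8 and 19 members (4.2%, 2.8% and 8.19%), and they were kept. The pools shared 38 to 48 barcodes in pairs by sequence, none of them a member's. All intervals and floors below cover counting error only.

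The values behind the selection are descriptions. A member held a median of 5 Klf1 UMIs (1 to 24), 17 Car1 UMIs (2 to 125) and 10 Ermap UMIs (1 to 32). KLF1 is the erythroid Krüppel-like activator of the adult globin genes, Car1 encodes a carbonic anhydrase of red cells, and Ermap encodes an erythroid membrane protein. At the edges, 75 members had 1 Klf1 UMI and 46 cells missed only the Klf1 limit, 28 members had 2 Car1 UMIs while 37 cells with 1 and 55 cells with 0 missed only that limit, and 24 members had 1 Ermap UMI and 56 cells missed only that limit. Rhag was found in 52% of the members at 1 Klf1 UMI and in 41.3% of the cells that missed the Klf1 limit, beside 89.1% of all members.

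The limit on Ms4a3, a gene of granulocyte-monocyte progenitors (GMPs), removed more cells than the others. Of 1640 barcodes that met the 3 erythroid limits, 765 (46.6%) held an Ms4a3 UMI. In cells chosen as stem or multipotent (at least 1 UMI each of Hlf and Cd34, none of Klf1), before any limit on Ms4a3, the share was 60.3% at a lower median depth, 11930 against 20066 UMIs. All other values of stem or multipotent cells are from the 1050 of these 2644 cells that had 0 Ms4a3 UMIs. The cells left out with 1, 2 or 3 Ms4a3 UMIs numbered 437, 136 and 41. These 614 cells together held 285 CPM of Klf1 and 1139 CPM of Car1, beside 282 and 1153 CPM in the members, where CPM is a gene's UMIs per 1000000 UMIs summed over the cells. A further 117 cells had 10 or more Ms4a3 UMIs, a median depth of 31831 UMIs and 117 CPM of Klf1, and Scrublet marked 76.9% of them.

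Markers that the selection did not use fit the label. Aqp1, the red cell water channel, was found in 99.3% of members, Gata1, the central erythroid transcription factor, in 93.8%, and Rhag, the Rh-associated ammonia channel, in 89.1%. With every cell thinned to 5000 UMIs, which left 869 members, the shares were 89.2%, 64.2% and 66.2%. The same thinned shares were 0.735%, 0.375% and 0.33% in GMPs, whose UMIs of these genes can come from free RNA, and 1.83%, 3.65% and 0.571% in stem or multipotent cells. Aqp1 stood at 425, 448 and 471 CPM in the members of Pools 1, 2 and 3. Rhag stood at 253, 263 and 273 CPM and Gata1 at 203, 206 and 201 CPM. The spread between pools was small beside the distance to the other cells, as Gata1 was at 81.9 to 98.9 CPM in megakaryocyte-marked cells, at 7.31 to 8.98 CPM in stem or multipotent cells and at 0.673 to 1.02 CPM in GMPs. Since the sets were chosen by their transcripts, the comparison between them is a description and has no test.

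**Figure D1:**
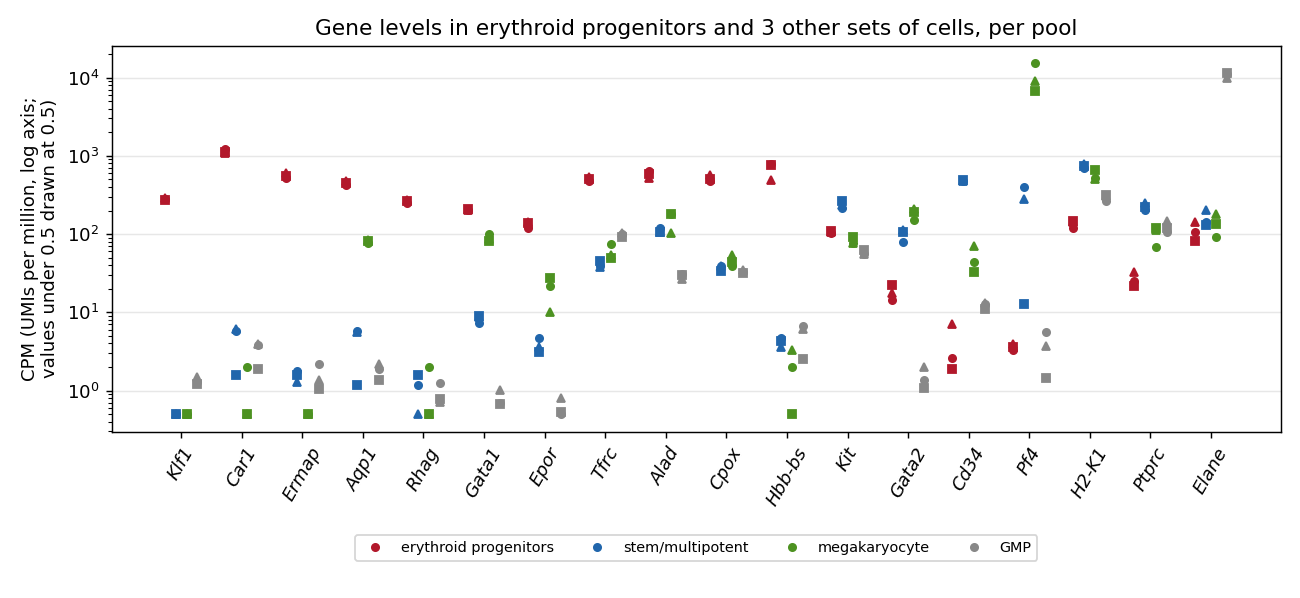
Level of 18 genes (CPM, log axis) in erythroid progenitors, stem or multipotent cells, megakaryocyte-marked cells and GMPs, with a circle, square and triangle for Pools 1, 2 and 3 and values under 0.5 CPM drawn at 0.5. The red points of the erythroid genes lie above the other sets, those of Kit, Gata2, Cd34, H2-K1 and Ptprc lie below the blue points of the stem or multipotent cells (chosen by Cd34), and the members' Pf4 is at 3.29 to 3.94 CPM.

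Of the transcription factor genes, Bcl11a, a repressor of embryonic-type globins, had 469, 469 and 514 CPM in the 3 pools. Myb, which keeps progenitors dividing, had 383, 409.5 and 401 CPM, and Zfpm1, the partner protein of GATA1, had 296, 293 and 285 CPM. Tal1, a basic helix-loop-helix partner of GATA1, had 216, 207 and 279 CPM. Tal1 was highest in Pool 3. Gata2, which precedes Gata1 in progenitors, was low at 14.3, 22.6 and 17.9 CPM beside 79.3 to 114 CPM in stem or multipotent cells. Spi1, the myeloid factor PU.1, stood at 5.84 to 11.8 CPM in the members and at 173 to 188 CPM in GMPs. Of 17 genes on this list, 9 were higher and 8 lower in the members of every pool than in any pool of the stem or multipotent cells, where 41.3% and 34.7% of all 6542 genes compared were. Against GMPs, 11 were higher and 2 lower of 15, where 60.4% and 25.9% of 5860 genes were.

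Epor, the erythropoietin receptor, was at 119, 138 and 141 CPM in the members and was found in 86.4% of them, or 45.7% at 5000 UMIs per cell. In stem or multipotent cells it was at 3.12 to 4.68 CPM, and in GMPs at 0.451 to 0.797 CPM. Kit, the receptor used for the enrichment, was at 103, 109 and 105 CPM, under the 218 to 268 CPM of stem or multipotent cells and above the 54.8 to 62.4 CPM of GMPs. Stat5a, a transducer of the erythropoietin signal, was at 58.4, 59.4 and 59.5 CPM. Cish, a feedback gene of that signal, stood at 0.565 to 1.97 CPM and at 9.44 to 11.4 CPM in stem or multipotent cells. Over the 15 genes of the list, 10 could be compared with stem or multipotent cells, and 3 were higher and 7 lower in every pool, where 41.3% and 34.7% of all genes were.

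The 12 heme synthesis genes spanned a wide range of levels. Together they summed to 2852, 2836 and 2835 CPM in the members, to 476 to 517 CPM in stem or multipotent cells and to 643 to 656 CPM in GMPs. Tmem14c, a porphyrin transporter of mitochondria, had 758, 753 and 693 CPM. Alad and Cpox, enzymes of the porphyrin steps, had 527 to 632 and 482 to 563 CPM. Alas2, the erythroid form of the enzyme that starts the pathway, had 5.3, 6.97 and 6.12 CPM. Ppox and Uros, enzymes of later steps, were also low, at 31.7 to 35.1 and 42.2 to 44.8 CPM. All 11 heme genes that could be compared were higher in every pool of members than in the stem or multipotent cells, and 10 of 11 than in the GMPs, where 60.4% of all genes were. Of the iron genes, Tfrc, the transferrin receptor, had 471, 501 and 531 CPM beside 38.4 to 44.9 CPM in stem or multipotent cells, and Fth1, the ferritin heavy chain, had 4415, 4442 and 4197 CPM.

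Globin RNA was present at uneven levels. Hbb-bs, an adult beta globin gene, had 789, 755 and 491 CPM, and Hba-a1, an adult alpha globin gene, had 409, 325 and 281 CPM, so Pool 3 was lowest for both. Each was below 7 CPM in the 3 other sets. A Hbb-bs UMI was found in 62.3% of members and a Hba-a1 UMI in 50.3%, against 3.72% and 1.79% of GMPs at a median of 13398 UMIs and 3.62% and 1.14% of stem or multipotent cells at 7476. The embryonic genes Hbb-bh1 and Hbb-y had 0 UMIs in the members. Hba-a1 and Hba-a2 are nearly identical copies, as are Hbb-bs and Hbb-bt, so the division of UMIs between copies is uncertain.

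The 22 membrane genes summed to 3761, 3923 and 4080 CPM in the members and to less in the other sets, with 956 to 1049 CPM in stem or multipotent cells and 996 to 1157 CPM in GMPs. Ermap, which the selection used, is 1 of the 22, in this and every later count of membrane genes, and gave 525, 553 and 611 CPM of the members' sums and 1.05 to 2.17 CPM of those of the stem or multipotent cells and GMPs. Cd24a, a surface glycoprotein, led with 799, 804 and 864 CPM. Slc4a1, the band 3 anion exchanger of late red cell precursors, had 15, 23.6 and 14.6 CPM. Of the red cell enzymes, Car2, a second carbonic anhydrase, had 1631, 1698 and 1684 CPM and Prdx2, a peroxide-removing enzyme, had 1340, 1242 and 1018 CPM.

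GATA1 binds sites that hold the letters GATAA, and promoters are shown for 2 genes of the selection, 1 marker and 1 globin gene whose windows hold them. Each window runs from 250 bases before to 50 after the RefSeq start in GRCm38.p6, 5′ to 3′ on the strand of the gene, and capitals mark the searched motif, AGATAA or TGATAA on either strand. Klf1 (chr8:84901732-84902031, plus strand), Ermap (chr4:119189946-119190245, minus strand), Rhag (chr17:40810899-40811198, plus strand) and Hba-a1 (chr11:32283422-32283721, plus strand) each hold 1.
Klf1: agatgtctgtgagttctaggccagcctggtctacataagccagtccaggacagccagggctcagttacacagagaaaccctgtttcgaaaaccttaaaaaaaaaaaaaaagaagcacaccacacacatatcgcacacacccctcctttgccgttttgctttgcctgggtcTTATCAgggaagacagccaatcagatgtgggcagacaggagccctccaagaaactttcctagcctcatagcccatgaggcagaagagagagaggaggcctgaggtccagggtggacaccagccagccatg
Ermap: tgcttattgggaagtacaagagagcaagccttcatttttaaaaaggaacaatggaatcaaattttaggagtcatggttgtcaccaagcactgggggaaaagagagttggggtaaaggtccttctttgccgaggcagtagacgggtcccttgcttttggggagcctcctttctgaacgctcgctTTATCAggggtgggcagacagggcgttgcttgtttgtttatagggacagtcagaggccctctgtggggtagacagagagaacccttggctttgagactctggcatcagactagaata
Rhag: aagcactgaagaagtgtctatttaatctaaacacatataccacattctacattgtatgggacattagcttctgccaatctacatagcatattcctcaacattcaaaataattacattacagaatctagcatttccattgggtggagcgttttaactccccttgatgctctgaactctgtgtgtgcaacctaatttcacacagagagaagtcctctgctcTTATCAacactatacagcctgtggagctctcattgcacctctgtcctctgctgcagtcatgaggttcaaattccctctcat
Hba-a1: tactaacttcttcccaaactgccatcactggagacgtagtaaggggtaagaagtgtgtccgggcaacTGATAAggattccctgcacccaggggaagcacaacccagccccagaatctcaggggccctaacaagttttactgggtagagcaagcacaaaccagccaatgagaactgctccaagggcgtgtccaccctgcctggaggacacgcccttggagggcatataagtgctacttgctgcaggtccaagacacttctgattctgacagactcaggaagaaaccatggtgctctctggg
RefSeq windows matched 33 of the 45 marker, heme, globin and membrane genes, and 14 of the 33 (42.4%) held the motif, beside 18.6% of all 32851 promoters. The lists differed, with the motif in 5 of 6 globin windows, among them the near-identical Hba copies, 6 of 15 membrane, 3 of 5 marker and 2 of 10 heme windows. It was in 14.3% of iron, 12.5% of red cell enzyme and 10% of S phase windows. CCNCNCCC, the letters read by KLF1 and other factors of its family, was in 22 of the 33 (66.7%) and in 49.5% of all promoters. It was also in 85.7% of iron, 75% of red cell enzyme and 70% of S phase windows. The windows of Gata1 and Aqp1 held 3 matches each. A match describes letters in these windows only.

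The members carried much RNA of dividing cells. Genes of S phase summed to 4937, 4988 and 5348 CPM over 25 genes, beside 2740 to 2851 CPM in stem or multipotent cells and 2580 to 2945 CPM in GMPs. Nucleolar genes, which serve ribosome assembly, summed to 7318, 6863 and 7068 CPM over 20 genes and were higher than in stem or multipotent cells for 20 of 20, where 41.3% of all genes were. The 17 genes of the unfolded protein response summed to 2405 to 2559 CPM, near the 2461 to 2504 CPM of stem or multipotent cells and under the 5966 to 6298 CPM of GMPs. Of the pyrimidine pathway, Dhodh, the target of brequinar, had 17.3, 15.8 and 16.0 CPM in the members, 14.3 to 16.1 CPM in stem or multipotent cells and 6.77 to 7.83 CPM in GMPs. Cad, which catalyzes the steps before Dhodh, had 122, 122 and 114 CPM and Umps, which acts after it, had 68.4, 68.0 and 70.2 CPM.

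RNA of MHC class I and CD45 was low in the members. H2-K1, an MHC class I heavy chain, had 119, 149 and 144 CPM beside 709 to 788 CPM in stem or multipotent cells and 265 to 314 CPM in GMPs. Ptprc, which encodes CD45, had 25.1, 21.9 and 32.4 CPM beside 200.1 to 249 CPM and 106 to 145 CPM. B2m, the light chain of MHC class I, had 434, 458 and 417 CPM beside 1169 to 1171 CPM and 536 to 633 CPM. All 11 genes of the list that could be compared were lower in every pool than in stem or multipotent cells, where 34.7% of all genes were. The reference genome carries the MHC haplotype of C57BL/6, and how BALB/c reads map to H2 genes was not tested.

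Megakaryocyte, stem cell, lymphoid and macrophage markers were low in the members, whereas GMP and neutrophil RNA was present. The 8 megakaryocyte markers summed to 16 to 20.3 CPM in the members of the 3 pools, 8 stem cell markers to 27.7 to 43.7 CPM, 6 lymphoid markers to 2 to 14.3 CPM and 5 macrophage markers to 3.2 to 17.5 CPM. The 7 GMP markers summed to 446, 362 and 639.5 CPM against 38168 CPM in GMPs, with Elane, a granule protease, at 105, 81 and 144 CPM. The GMP markers summed to 1906 to 2251 CPM in stem or multipotent cells and to 464 to 771 CPM in megakaryocyte-marked cells. The 8 neutrophil markers summed to 4321, 1960 and 3363 CPM in the members. They summed to 4481 to 10026 CPM in stem or multipotent cells, 1151 to 11075 CPM in megakaryocyte-marked cells and 37627 to 42129 CPM in GMPs. S100a8, the most abundant calcium-binding protein RNA of neutrophils with S100a9, was at 1273, 546 and 1060 CPM in the members. The median cell had 981 CPM of the 8 genes beside 3318 CPM over all members together, and 32 of the 42 members marked by Scrublet were among the 10% with the most.

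The members spanned a range of maturation. They were ordered within each pool, after thinning to 5000 UMIs, by 7 late genes (among them Alas2, Slc4a1, Hemgn, Fech and Ctse) minus 6 early ones (Cd34, Gata2, Kit, Myb, Meis1, Cd9), and 869 members were cut into bins 1 (earliest) to 4 of nearly equal size. The bins are ranges of a score, not cell types, and differences between them are descriptions with no test. From bin 1 to bin 4, 29.3% of 5947 genes were higher and 34.1% lower in every pool. Median depth was 16997 UMIs in bin 1 and 17429 in bin 4.

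Hba-a1 was at 6.45, 7.48 and 13.3 CPM in bin 1 of Pools 1, 2 and 3 and at 1254, 1053 and 785 CPM in bin 4. Hbb-bs went from 55.4, 57.3 and 40.8 CPM to 2378, 2415 and 1255 CPM. Bin 4 lay above bin 1 in each pool. The order did not use globins, and their sum, as a mean over pools, was 67.2, 285, 941 and 3360 CPM in bins 1 to 4. Heme genes summed to 1711 CPM in bin 1 and 4274 CPM in bin 4, with 9 of 10 genes that the order did not use higher in every pool. Membrane genes went from 2698 to 5614 CPM, with 15 of 15 such genes higher, Ermap of the selection among them, and iron genes from 5409 to 8762 CPM, with 7 of 11 higher and 1 lower. Tmem14c was at 340.4, 363 and 407 CPM in bin 1 and at 1251, 1225 and 1030 CPM in bin 4, higher in each pool. Tfrc went from 301 to 699 CPM and Slc25a37, the mitochondrial iron importer mitoferrin 1, from 54.1 to 186 CPM as means over pools, whereas Slc11a2, an iron transporter of endosomes, stood at 82.6 and 86 CPM. Prdx2 went from 743 to 1632 CPM and Car2 from 1033 to 2210 CPM.

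**Figure D2:**
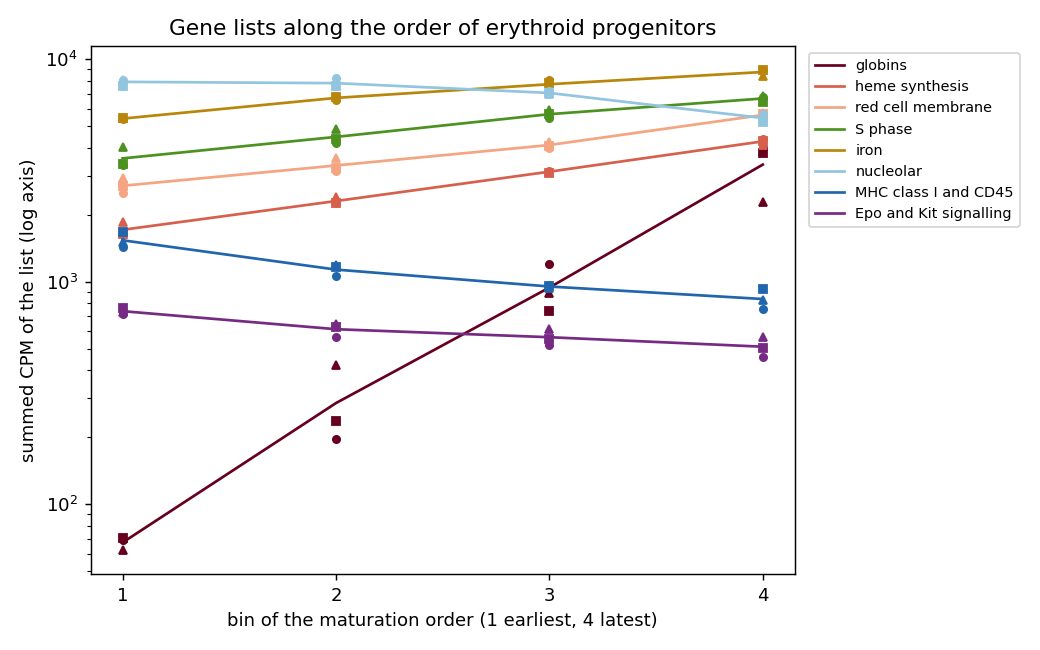
Summed CPM (log axis) of 8 gene lists in bins 1 to 4 of the maturation order, with lines for the mean over 3 pools and a circle, square and triangle for Pools 1, 2 and 3. Globins climb from 67.2 to 3360 CPM, heme, iron, membrane and S phase genes climb less, and nucleolar, MHC class I and CD45, and Epo and Kit signalling genes decline. Heme, membrane, and Epo and Kit sums include genes used for the order, and the membrane sum includes Ermap of the selection. Kit, used for the order, gave 209 CPM of the Epo and Kit sum of 737 CPM in bin 1 and 18.7 of 510.1 CPM in bin 4. Of 7 genes of that list counted and not used for the order, 3 were higher and 4 lower in every pool. Of all genes, 29.3% were higher and 34.1% lower.

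The genes of the selection differed in direction along the order. Car1 was at 1684, 1629 and 1495 CPM in bin 1 and at 744, 591 and 887 CPM in bin 4. Klf1 was at 238, 230.2 and 223 CPM and then at 323, 319 and 360.5 CPM, and Ermap at 434, 456 and 531 CPM and then at 593, 672 and 695 CPM. Car1 was thus lower and the others higher in bin 4 of every pool. Rhag, which the selection did not use, was at 131, 161 and 171 CPM and then at 381, 379 and 391 CPM. Among factors, Sox6, which represses embryonic globins with Bcl11a, had 5.89 CPM in bin 1 and 76.8 CPM in bin 4, Gfi1b, a repressor needed for red cell formation, had 125 and 202 CPM, and Cbfa2t3, a corepressor that binds TAL1, had 195 and 59.9 CPM. Epor was at 99.9, 107 and 99.3 CPM in bin 1 and at 150.5, 169.7 and 178 CPM in bin 4, while Nr3c1, the glucocorticoid receptor, went from 121 to 66.6 CPM.

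S phase genes were higher in bin 4 for 24 of 25, with a sum of 3584 CPM in bin 1 and 6662 CPM in bin 4, and genes of G2 and M phase for 21 of 23. Rrm2, a subunit of ribonucleotide reductase, which makes the building blocks of DNA, went from 102 to 364 CPM. Nucleolar genes went the other way, with 19 of 20 lower in every pool and sums of 7912 and 5439 CPM. Of 15 pyrimidine genes 8 were higher and 5 lower in every pool, where 29.3% and 34.1% of all genes were. Dhodh was at 25.8, 15.8 and 23.9 CPM in bin 1 and at 10.4, 11.7 and 7.97 CPM in bin 4, whereas Tk1, the salvage enzyme thymidine kinase, went from 70.8 to 207 CPM. MHC class I and CD45 genes were lower for 8 of 9, and H2-K1 was at 204, 254 and 215 CPM in bin 1 and at 64.5, 93.1 and 91.6 CPM in bin 4.

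The genes whose level over the 12 sums of pool and bin was most like that of Klf1, among 1613 genes with a mean of at least 100 CPM, were Asb17os and Rock1 (Spearman rho 0.944 each), Cmc2 (0.937), and Asns and Zfp36l1 (0.923 each). The 12 sums share their 3 pools, and no p is given.

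Mice were told apart by 3 hashtag antibodies, each carrying the 15-base barcode printed here so that the groups can be traced in the hashtag counts. NTB mice had the first, vehicle mice the second and BRQ mice the third.
B0301: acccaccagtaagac
B0302: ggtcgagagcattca
B0303: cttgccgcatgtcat
HTODemux called 160 of the 875 members (18.3%, exact 95% interval 15.8% to 21%) as cells of 1 mouse, 687 as negative (306, 221 and 160 in Pools 1, 2 and 3) and 28 as holding more than 1 hashtag. The called share was 13.7%, 21% and 22% in Pools 1, 2 and 3. It was 49.6% among the other cells, 54.9% among stem or multipotent cells and 55.8% among GMPs. The median member held 1053, 1454 and 1716 hashtag UMIs in the 3 pools, beside 1515, 1728 and 2185 for other cells, so the members had fewer in each pool. These antibodies bind CD45 and MHC class I.

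The called share was lower later in the maturation order. It was 30.1% in bin 1, 20.7% in bin 2, 12% in bin 3 and 9.22% in bin 4. Bin 1 held 20.2%, 34.7% and 39.7% called members in Pools 1, 2 and 3, and bin 4 held 5.62%, 9.86% and 14%. Bin 4 was thus lowest in 2 of 3 pools, and the mouse groups were seen mainly through the less mature members.

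**Figure D3:**
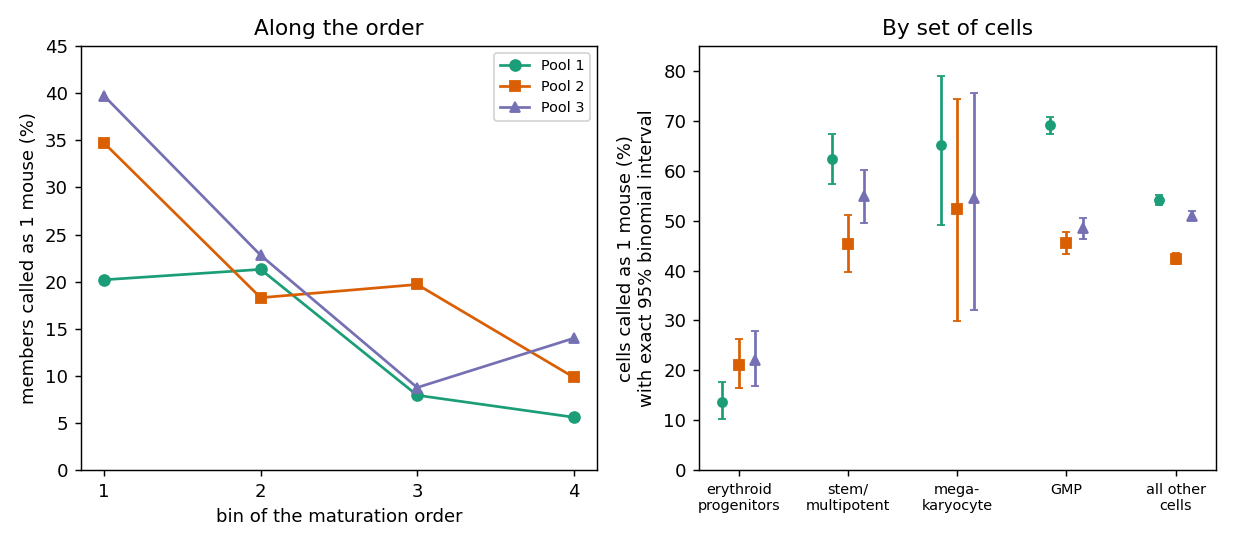
Left, percent of erythroid progenitors called as 1 mouse in bins 1 to 4 of the maturation order, per pool. Right, percent of cells called as 1 mouse in 5 sets of cells, per pool, with exact 95% binomial intervals. The members sit at 13.7% to 22% and the other cells at 42.4% to 54.1%.

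Called members were compared with negative members within pools, by summing the UMIs of each and testing with edgeR (pool as a block, Benjamini-Hochberg adjusted p under 0.05). Of 8940 genes tested, 554 were called (6.2%), 327 higher (3.66%) and 227 lower (2.54%) in the called members. Of the MHC class I and CD45 genes, a list that also holds the peptide processing and loading genes Psmb8, Psmb9, Tap1, Tap2 and Tapbp, 7 of 11 were called higher, Psmb8 and Psmb9 among them, while 4 of 4 globin, 9 of 12 heme and 10 of 20 membrane genes were called lower. Both sets came from the same 3 pools, and the mice of the negative members are not known. Scrublet marked 8 of 49, 5 of 60 and 8 of 51 called members in Pools 1, 2 and 3. Among the negative members it marked 6 of 306, 2 of 221 and 7 of 160. Without the marked members 475 of 8766 genes were called (5.42%), 252 higher and 223 lower, and 401 of them were among the 554.

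H2-K1 was at 105.97, 128.16 and 117.72 CPM in the negative members of Pools 1, 2 and 3 and at 215.97, 237.34 and 199.89 CPM in the called members. The sets did not overlap, and the log2 fold change was 0.89 (SE 0.08, adjusted p = 4.88e-10). Ptprc was at 20.41, 19.09 and 22.01 CPM in negative and at 54.28, 33.52 and 63.73 CPM in called members (log2 fold change 1.28, adjusted p = 7.84e-07). B2m rose by 0.44 and H2-D1, another MHC class I heavy chain, by 0.59 on the log2 scale. Of 11 MHC class I and CD45 genes tested, 7 rose and 0 fell, with a median of 0.59 beside 0.01 over all genes tested.

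Early genes were higher in the called members. Gata2 was at 12.25, 15.87 and 11.01 CPM in negative and at 30.53, 49.82 and 34.76 CPM in called members (log2 fold change 1.55, adjusted p = 4.52e-07). Kit rose by 0.55 and Myb by 0.50. Of 17 genes on the erythroid factor list 4 rose, the myeloid factor Spi1 (1.08) among them, and 4 fell. Sox6, with 33.85, 40.16 and 32.1 CPM in negative and 13.57, 13.59 and 18.35 CPM in called members, changed by -1.22. Of 11 Epo and Kit signalling genes 4 rose and 0 fell. The 4 were Kit, Nr3c1, Lyn (mean 15.1 CPM) and Csf2rb (mean 7.05 CPM).

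Late genes were lower. Hba-a1 was at 453.3, 376.81 and 295.97 CPM in negative and at 217.1, 180.27 and 170.92 CPM in called members, and the sets did not overlap (log2 fold change -0.98, SE 0.08, adjusted p = 1.02e-10). All 4 globin genes tested fell, with Hbb-bs at -0.85 and Hbb-bt at -1.24. Of 12 heme genes 9 fell and 0 rose (median -0.44), among them Tmem14c at -0.45, and of 20 membrane genes 10 fell and 0 rose (median -0.39), with Sptb, a chain of erythroid spectrin, at -0.79. Hemgn, a nuclear protein of erythroid cells, changed by -0.73. Of 25 S phase genes 11 fell and 0 rose, and of 20 nucleolar genes none was called by edgeR.

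Among the label markers, Rhag fell by 0.45 and Gata1 by 0.26 on the log2 scale, while Aqp1 was at -0.18 without passing the test (adjusted p = 0.191). Klf1, Car1 and Ermap, which the selection used, were at -0.25, 0.24 and -0.24, given as descriptions. Among called genes with a mean of at least 50 CPM and no overlap, those with the largest rise were genes of neutrophils and other myeloid cells, Retnlg (2.11), S100a8 (1.95), Lyz2 (1.82), Lcn2 (1.78) and S100a9 (1.71), and all 7 neutrophil markers tested rose. The 8 markers summed to 13324, 4925 and 3835 CPM in the called members of Pools 1, 2 and 3 and to 2739, 991 and 2853 CPM in the negative members.

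Without the 10% of members of each pool with the most neutrophil UMIs, 384 genes were called. H2-K1 (0.95), Ptprc (1.19) and Hba-a1 (-1.12) were among them, while S100a8 was at 0.03, Retnlg at -0.39 and Lcn2 at -0.11 and not called. The last 3 belong to the markers by which those members were left out.

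**Figure D4:**
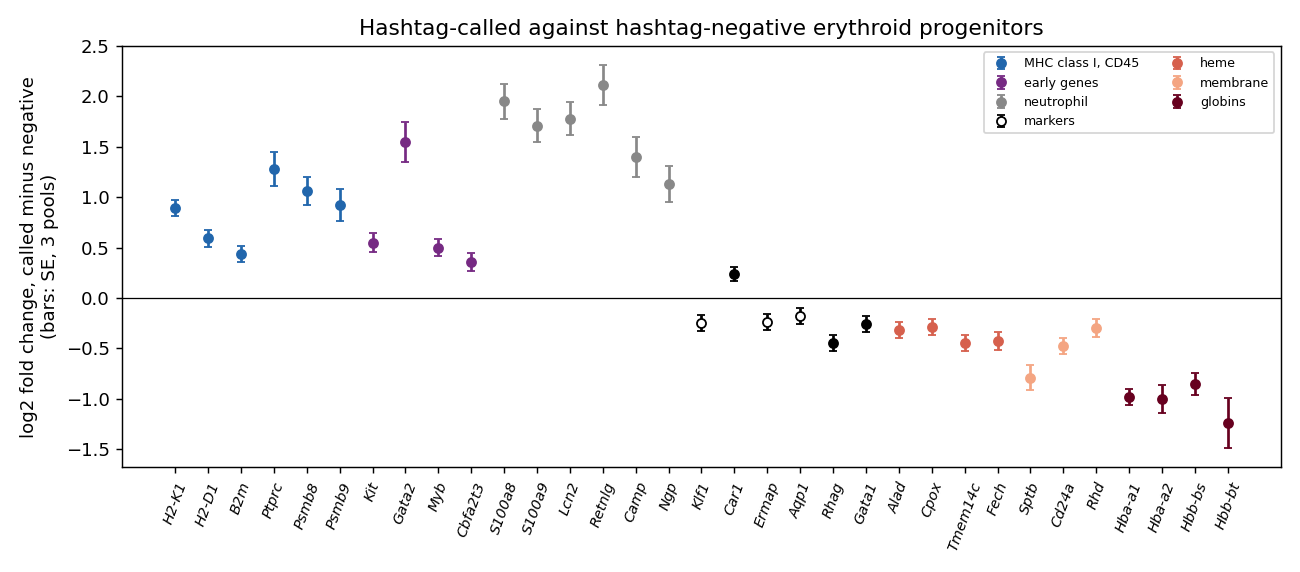
Log2 fold change of 33 genes, hashtag-called minus hashtag-negative erythroid progenitors, with bars of 1 SE from the edgeR fit over 3 pools, filled where the adjusted p was under 0.05. The MHC class I, CD45, early and neutrophil genes drawn lie above 0, and the heme, membrane and globin genes drawn lie below. Klf1, Car1 and Ermap were used by the selection.

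The share of members among the called cells of a mouse was compared between the groups. It is a percent of 382 to 2780 called c-Kit-enriched cells per mouse, so it also moves with the number of other cells called. Among NTB mice the share was 0.903%, 2.07% and 1.35% (Pools 1, 2 and 3). Among vehicle mice the values were 0.432%, 1.57% and 0.476%, and among BRQ mice 1.24%, 1.16% and 0.512%. The groups overlapped, with means of 1.44% ± 0.587 (SD, n = 3), 0.826% ± 0.645 and 0.973% ± 0.401. Vehicle minus NTB was -0.613 percentage points (p = 0.3), BRQ minus vehicle 0.147 (p = 0.8) and BRQ minus NTB -0.466 (p = 0.4) by two-sided exact permutation tests, whose smallest possible p is 0.1. With the pool as a block the within-pool differences had the same means. Vehicle lay under NTB in each of the 3 pools, and the exact sign-flip test gave p = 0.25, the smallest that 3 pairs allow. The same exact test gave p = 0.75 for BRQ minus vehicle and 0.5 for BRQ minus NTB. These values depend on the calls. Tag ratio calls set the top hashtag against the next, each divided by its median in the pool. Every vehicle mouse lay below every NTB mouse with tag ratio calls, at the HTODemux quantile of 0.95 and with up to 3 Ms4a3 UMIs. Vehicle minus NTB was there -0.915, -1.53 and -1.67 percentage points (exact permutation p = 0.1 each, the smallest possible). BRQ minus NTB was then -0.691, -1.05 and -1.27 (exact permutation p = 0.1, 0.2 and 0.1), and BRQ lay wholly below NTB in the first and the last. With 1 mouse left out, vehicle minus NTB ran from -0.985 without vehicle mouse 2 to -0.30 without NTB mouse 2, and BRQ minus NTB from -0.734 without NTB mouse 1 to -0.152 without NTB mouse 2. Since called members were few and less mature, the shares describe the hashtag-positive ones only.

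**Figure D5:**
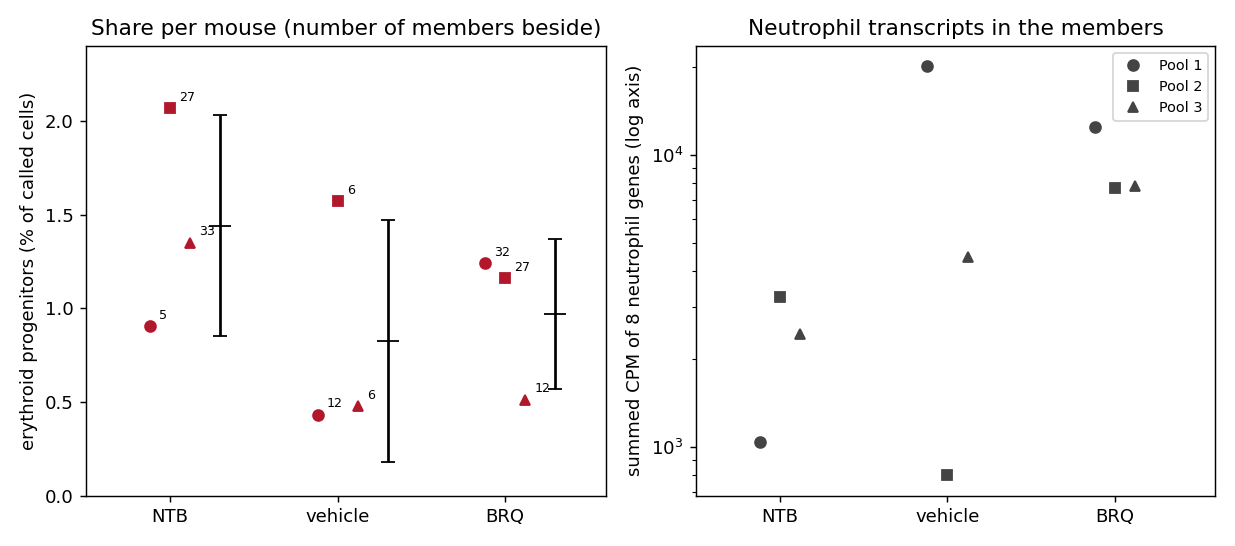
Left, erythroid progenitors as a percent of the called cells of each of 9 mice, with the number of members beside each point and the mean and SD of each group. Right, summed CPM of 8 neutrophil marker genes in those members (log axis). The shares overlap between groups, and the neutrophil sums are 1036 to 3253 in NTB, 800 to 20034 in vehicle and 7709 to 12425 in BRQ mice.

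Only 6 mice had at least 10 called members, NTB mice 2 and 3 (27 and 33), vehicle mouse 1 (12) and the 3 BRQ mice (32, 27 and 12). BRQ was compared with NTB by edgeR over these mice. Of 7295 genes tested 33 were called (0.452%), all 33 higher in BRQ, and 520 had an unadjusted p under 0.05. With the pool as a replicate block 82 genes were called, 50 higher and 32 lower, 29 of them shared with the 33.

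The 5 largest changes among called genes with a mean of at least 50 CPM and no overlap included neutrophil genes. Retnlg, a secreted neutrophil protein gene, was at 7.97 and 27.93 CPM in the NTB mice, 24.62 CPM in vehicle mouse 1 and 190.07, 606.32 and 541.12 CPM in BRQ mice (log2 fold change BRQ against NTB 4.46, SE 0.40, adjusted p = 1.05e-08). S100a8 was at 768.73 and 690.99 CPM in NTB, 6087.16 CPM in vehicle and 4490.58, 2540.66 and 2493.47 CPM in BRQ (2.12, adjusted p = 8.58e-08). The BRQ mice were above the NTB mice for both, and the vehicle mouse was above all for S100a8. Ifitm6, an interferon-inducible membrane protein gene, rose by 3.14, S100a6, a calcium-binding protein gene, by 2.74 and Lyz2, the lysozyme of myeloid cells, by 2.00. Of 7 neutrophil markers tested 4 were called. Without the members marked by Scrublet the calls fell from 33 to 7, and S100a8 was at -0.52 and Lyz2 at -0.08. BRQ mouse 3 then had 9 members and also left this fit, so the loss of doublets and of a mouse were not tested apart. Retnlg and S100a6 kept their sign, at 1.25 and 1.21, but were no longer called (edgeR adjusted p = 0.698 and 0.816). With all mice admitted 2 genes were called.

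Single cells carried much of these counts. The richest cell held 69.9%, 66.7% and 49.8% of the S100a8 UMIs of the BRQ mice, 81.1% and 51.1% of those of NTB mice 2 and 3 and 93.9% of those of vehicle mouse 1. The 8 markers summed to 12425, 7709 and 7835 CPM in the BRQ members and to 3253 and 2435 CPM in those of NTB mice 2 and 3. Members among the 10% with the most neutrophil UMIs were 6 of 32, 7 of 27 and 3 of 12 in BRQ and 2 of 27 and 2 of 33 in NTB. Without them edgeR called 0 of 6199 genes, with 427 at an unadjusted p under 0.05. BRQ mouse 3 and vehicle mouse 1, with 9 and 8 members left, also fell out of this fit. The loss of those mice and of the neutrophil-rich members were not tested apart. The neutrophil-rich members were left out by their neutrophil UMIs, so the values of neutrophil genes among the rest are no separate test.

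Erythroid genes were rarely called. Hbb-bs was at 231.02 and 304.33 CPM in NTB, 44.32 CPM in vehicle and 654.5, 383.93 and 467.53 CPM in BRQ mice, so the BRQ values lay above those of the 2 NTB mice fitted (log2 fold change 0.91, SE 0.19, adjusted p = 0.0102). NTB mouse 1, left out with 5 members, had 1011.09 CPM when all 9 mice were fitted, above every BRQ mouse and with 90.1% of its UMIs in 1 cell, so the groups then overlapped and Hbb-bs was not called (log2 fold change 0.33). One cell held 91.7% of the Hbb-bs UMIs of BRQ mouse 3. With the HTODemux quantile at 0.95 the Hbb-bs log2 fold change was -0.41, but NTB mouse 1, with 12 members there, had then entered the fit. In the main fit Hbb-bs was the only 1 of 4 globin genes called. Hba-a1, at 115.51 and 186.71 CPM in NTB and 259.49, 207.7 and 112.55 CPM in BRQ mice, had 0.42 (edgeR adjusted p = 0.737). None of 11 heme, 11 iron, 18 membrane, 16 factor, 9 Epo and Kit signalling, 17 pyrimidine, 20 nucleolar or 25 S phase genes was called, with medians of 0.07, 0.15, 0.07, -0.01, -0.01, -0.05, -0.02 and -0.17 beside 0.00 over all genes. Kif23, a motor protein of cell division, was the 1 of 23 G2 and M phase genes called (1.30, adjusted p = 0.00994), and 21 of the 23 had a positive value (median 0.30). Of 8 p53 target genes tested all had a positive value (median 0.65), as did 50.6% of all genes tested, and none was called.

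Dhodh was at 17.92 and 17.64 CPM in NTB, 19.7 CPM in vehicle and 16.53, 12.59 and 25.97 CPM in BRQ mice, so the groups overlapped (log2 fold change -0.07, SE 0.50, adjusted p = 0.995). The BRQ mean, 18.4 CPM, was above the NTB mean, 17.8 CPM, so the sign of the fitted value carries no direction. Rhag and Gata1 had 0.20 and 0.03 (adjusted p = 0.892 and 0.993). Klf1, which the selection used, was at 280.81 and 252.87 CPM in NTB and 233.04, 230.78 and 212.12 CPM in BRQ mice, a description with no test.

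Vehicle was compared by admitting all 9 mice, down to the 5 members of NTB mouse 1 and the 6 of vehicle mice 2 and 3. edgeR then called 0 of 4130 genes for vehicle against NTB, with 152 at an unadjusted p under 0.05, and DESeq2 called 0, with 52. For BRQ against vehicle edgeR called 0 of the same 4130 genes (196 under 0.05) and DESeq2 called 0 (87). Hbb-bs shows the spread, at 1011.09, 247.51 and 329.53 CPM in NTB, 47.09, 481.71 and 864.32 CPM in vehicle and 711.59, 412.24 and 515.12 CPM in BRQ mice. Klf1 was at 227.85, 300.85 and 273.81 CPM in NTB, 266.84, 267.62 and 360.93 CPM in vehicle and 253.37, 247.8 and 233.71 CPM in BRQ mice, and Rhag at 313.3, 187.77 and 221.28 CPM, 104.64, 267.62 and 408.42 CPM, and 201.26, 225.27 and 324.34 CPM. The groups overlapped for Hbb-bs and Rhag. The Klf1 levels are a description, since the selection used that gene. The 3 group comparisons share their mice.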

How the data were processed

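UMI counts per gene or hashtag and barcode were deposited by the authors, 1 matrix per pool, as made with Cell Ranger 6.0.0 on mm10 per the labels. Further read processing was not stated. Counts are whole and not normalized, and 10x 3′ counts are not divided by gene length. The study's limits of 500 and 7500 are worded in transcripts and were read as detected genes. Hashtags were called per pool with HTODemux (Seurat 5.3.0, quantile 0.99), doublets marked by Scrublet (scanpy 1.11.5). Total depth was 100700982 to 135564079 UMIs per pool.

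The members and gene lists were chosen with earlier results of these data known. Members were summed per mouse, or per pool and call, and tested with edgeR 4.0.16 (R 4.3.3, TMM, filterByExpr, quasi-likelihood, two-sided). CPM in the tests were scaled by TMM factors. Mice with at least 10 members entered, and the vehicle comparisons, which this limit left without a test, used all 9 mice, a choice made after seeing the data. The scripts were tested on simulated counts. Lists were described by counts, and named genes were the highest or called members of a list (up to 4), the 5 genes per direction with the largest called change among those with a mean of at least 50 CPM and no overlap, and the 5 most like Klf1. Other genes, Gata2, Spi1, Cish, Alas2, Slc4a1, Dhodh, Cad, Umps, Sox6 and Tk1 among them, were chosen after their values were seen. Some genes are not reported here. GMPs were cells with a scaled ln Ms4a3 value over 3, megakaryocyte-marked cells had at least 2 Pf4 UMIs and at least 1 Itga2b UMI without Klf1 or Ms4a3.

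The pool number pairs 1 mouse of each group in a shared lane, per the labels. As a check, deviations from the group means of mice of the same pool had a median correlation of -0.034 over 9 pairs (lowest -0.171), and of different pools -0.012 over 18 pairs, across 1831 genes. Alternatives were DESeq2 1.42.0, the pool block, other filters, hashtag calls, doublet and Ms4a3 limits, and leaving out each mouse or pool. RefSeq (GRCm38.p6) gave promoter sequences.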

Additional observations from a re-analysis of the deposited data

How the results depend on the processing

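The number of members was 31 with the limits of 500 and 7500 read as UMIs, 1640 with no limit on Ms4a3 and 1489 with up to 3 Ms4a3 UMIs, the last an alternative chosen after seeing the data. For called against negative members the 554 genes became 349 without the replicate block, 112 with DESeq2, 1021 with up to 3 Ms4a3 UMIs, 0 with the limits read as UMIs and 251 to 378 with 1 pool left out. For BRQ against NTB the 33 genes became 82 with the replicate block, 6 with DESeq2, 55 with no filter on low counts, 88 at the HTODemux quantile of 0.95, 7 without Scrublet doublets, 2 with mice of at least 1 member, 10 with up to 3 Ms4a3 UMIs, 0 without the 10% of members with the most neutrophil UMIs (chosen after seeing the data), and 18 to 35 with 1 mouse left out. The 18 were without NTB replicate 3, which leaves 1 NTB mouse assumed to vary like the other groups. For BRQ against NTB the limit of 10 members was applied anew to each choice of cells, so mice changed too. NTB mouse 1 entered at 0.95, and NTB mouse 1 and vehicle mouse 3 entered with up to 3 Ms4a3 UMIs. BRQ mouse 3 left without Scrublet doublets. Without the members with the most neutrophil UMIs, BRQ mouse 3 and vehicle mouse 1 left. Vehicle against NTB went from 0 to 1 with the block, 20 with no filter and 2 at 0.95. With 1 mouse left out it gave 0 to 15, the 15 without vehicle replicate 2. BRQ against vehicle went from 0 to 1 with the block, 12 with no filter, 4 with tag ratio calls, 8 at 0.95 and 0 to 3 with 1 mouse left out.

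Without Scrublet doublets the BRQ against NTB values turned to -0.52 for S100a8, -0.08 for Lyz2, -1.08 for Lcn2 and -0.44 for S100a9. Without the members with the most neutrophil UMIs they were -0.06 for S100a8, -0.67 for Lcn2 and -0.01 for S100a9, and for called against negative members -0.39 for Retnlg and -0.11 for Lcn2. Hbb-bs was at -0.41 at the quantile of 0.95, where NTB mouse 1 also entered the fit. BRQ minus vehicle in share was -0.0499 to 0.52 with 1 mouse left out, and BRQ minus NTB was 0.129 with the limits read as UMIs. The other causes were not tested. The block turned no direction of a share. Vehicle comparisons with at least 10 or 20 members per mouse or with the limits read as UMIs, and BRQ against NTB by tag ratio or with those limits, had too few cells and were not run.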

Other observations

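In the called members of BRQ mouse 2, a single cell held 4160 of 4175 UMIs of Igkc, an immunoglobulin light chain gene, and 4732 of 4734 UMIs of Ighm, the heavy chain of IgM. Both genes had at most 24 UMIs in any NTB mouse.

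The tag ratio rule divided each hashtag count by the median of that hashtag in the pool. The top hashtag then had to be at least 2 times the next, with at least 10 hashtag UMIs in the cell. HTODemux and this rule both called 77 members, and gave all 77 to the same mouse. The members that each called per mouse differed, with 5 by HTODemux and 18 by the ratio in NTB mouse 1, 27 and 6 in BRQ mouse 2, and 12 and 3 in BRQ mouse 3. Mitophagy genes, which serve the removal of mitochondria in late red cell precursors, were higher in bin 4 than in bin 1 of every pool for 3 of 5 genes and lower for 0, where 29.3% of all 5947 genes were higher and 34.1% lower. Interferon-response genes were lower for 4 of 5 and higher for 0.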
